A study of Homo sapiens with 9 samples.

Results

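Proteins that enter the secretory pathway fold inside the endoplasmic reticulum (ER), where chaperones, lectins and disulfide-forming enzymes act on them, and chains that fail to fold are sent to the cytosol for degradation. The genes examined here are 44 genes of this machinery and of the unfolded protein response, the signalling system that reads the folding load of the ER. They were taken as a list of symbols by known function. No measured value entered the rule, but earlier results of these data were known when the list was chosen. The rule itself named DNAJB9 as an example of a stalled transcript. Shares given over the list are therefore not those of genes chosen blind to the data. Of the 44 genes, 43 were among the 9221 coding transcripts of the deposited tables, 42 of them under the symbol of the list and ERO1L under its newer symbol ERO1A. The PF8503 table held 42 of them among 9157 transcripts and the PF846 table held 43 among 8839, since CNPY4 was listed only in the latter. A transcript entered a table only with enough reads in its counted region, so no count given with PF8503 covers CNPY4, in either direction. DERL3 was not analysed here.

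The measurements were ribosome footprints, the mRNA fragments that a ribosome shields from nuclease, from the human line Huh-7, which derives from a hepatocellular carcinoma. The cells were given 1.5 μM PF-06378503 (PF8503), 1.5 μM PF-06446846 (PF846) or 0.5% DMSO as vehicle for 1 hr, in 3 libraries per condition and 9 in all. The compounds are small molecules that stall ribosomes on particular nascent chains. The question asked of each gene was whether fewer footprints were found in its counted region when a compound was present. That region began beyond a putative stall only for some transcripts. For the others it was the coding sequence without the codons near either end, so reads at a stall there would be counted too. Both were given to the same cell line at the same dose and time.

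The values are means of normalized counts that the authors computed over the libraries of a condition, so no value of a single library, no replicate error and no test stand behind the differences below. The depth per library is unknown. Each difference is given as a log2 ratio, compound mean divided by vehicle mean, and a ratio of 0.5 or more in size, which is 1.41-fold, is counted as past the threshold. As a second yardstick, each ratio was set beside the central 95% of ratios of the transcripts in the same level bin, after each table had been cut into 10 bins of equal size by mean level. The vehicle libraries are shared by both comparisons, and the library names in the labels carry lane codes of which none is shared between conditions, so an effect of lane and one of condition cannot be told apart. In a bulk sample, fewer cells that translate an mRNA and fewer ribosomes per cell cannot be told apart either. The hepatocyte markers of the Huh-7 line were all listed (15 of 15), with vehicle means in the PF8503 table from 155 for TFR2 to 148370 for albumin (ALB) and 212970 for alpha-fetoprotein (AFP). Of 12 markers of blood, endothelial and fibroblast cells, 2 were listed, LYZ with a vehicle mean of 7769, above 9 of the 15 hepatocyte markers, and PECAM1 with 170. These means are not divided by coding length, so they do not order the markers by level per codon.

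The unfolded protein response is read by 3 membrane sensors, IRE1 (ERN1), PERK (EIF2AK3) and ATF6. The luminal chaperone BiP (HSPA5) binds the sensors and leaves them when unfolded chains accumulate. ATF6 and the XBP1 factor made after IRE1 has cut its mRNA then raise transcription of chaperone genes, many through the ER stress response element, while PERK slows translation and lets ATF4 be made. Most proteins of the list reach the ER by way of an N-terminal signal, the part of a protein that leaves the ribosome first.

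The starts of 4 coding sequences are shown because they encode the N-terminal signals of the 3 genes with the lowest PF8503 ratios and of HSPA5. Each line holds the first 90 bases, or 30 codons, with the start codon in capitals, from GENCODE version 44 on GRCh38. DNAJB9 begins in exon 2 at chr7:108571727-108571816 on the plus strand, TXNDC5 in exon 1 at chr6:7910687-7910776 on the minus strand and HSPA5 in exon 1 at chr9:125241037-125241126 on the minus strand. HSP90B1 runs across 2 exons between chr12:103930516-103931561 on the plus strand.
DNAJB9: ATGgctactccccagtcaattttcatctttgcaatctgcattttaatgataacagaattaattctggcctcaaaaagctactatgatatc
TXNDC5: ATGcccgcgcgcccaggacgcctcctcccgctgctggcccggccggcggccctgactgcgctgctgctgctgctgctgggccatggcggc
HSP90B1: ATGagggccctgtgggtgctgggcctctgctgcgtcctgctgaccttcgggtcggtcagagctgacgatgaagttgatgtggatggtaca
HSPA5: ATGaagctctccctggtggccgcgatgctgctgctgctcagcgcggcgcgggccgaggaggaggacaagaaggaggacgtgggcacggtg
The 4 starts differ in composition. GC content was 34.4% in DNAJB9 and 78.9% in TXNDC5, with 60.0% in HSP90B1 and 68.9% in HSPA5.

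In vehicle-treated cells the list held some of the most heavily translated mRNAs of the tables. Levels of different genes are compared per counted codon, which is the vehicle mean in the PF846 table divided by the coding length less 10 codons at the start and 10 at the end. The median of the 43 genes was 1.97 normalized counts per codon against 0.834 over all transcripts, and 34 of 43 were above the latter. The lectin chaperone CALR stood highest with 57.3 counts per codon, followed by HSP90B1 (GRP94, the HSP90 of the ER) with 30.2, HSPA5 with 29.3 and PPIB (cyclophilin B, a prolyl isomerase) with 28.8. The values for HSP90B1, HSPA5 and PPIB lay close together, and no replicate spread is at hand to order them. PDIA3 came next with 24.8 and CANX, the membrane-bound lectin chaperone, with 16.3. The sensors EIF2AK3 and ERN1 were at the other end of the scale. EIF2AK3 had 0.208 and ERN1 0.117 counts per codon, the lowest values of the list. The sensor ATF6 had 0.942, above the median of all transcripts. XBP1, the transcription factor downstream of ERN1, had 9.36. DNAJB9 stood at rank 22 of 43 with 1.97 and TXNDC5 at rank 31 with 1.14.

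**Figure D1:**
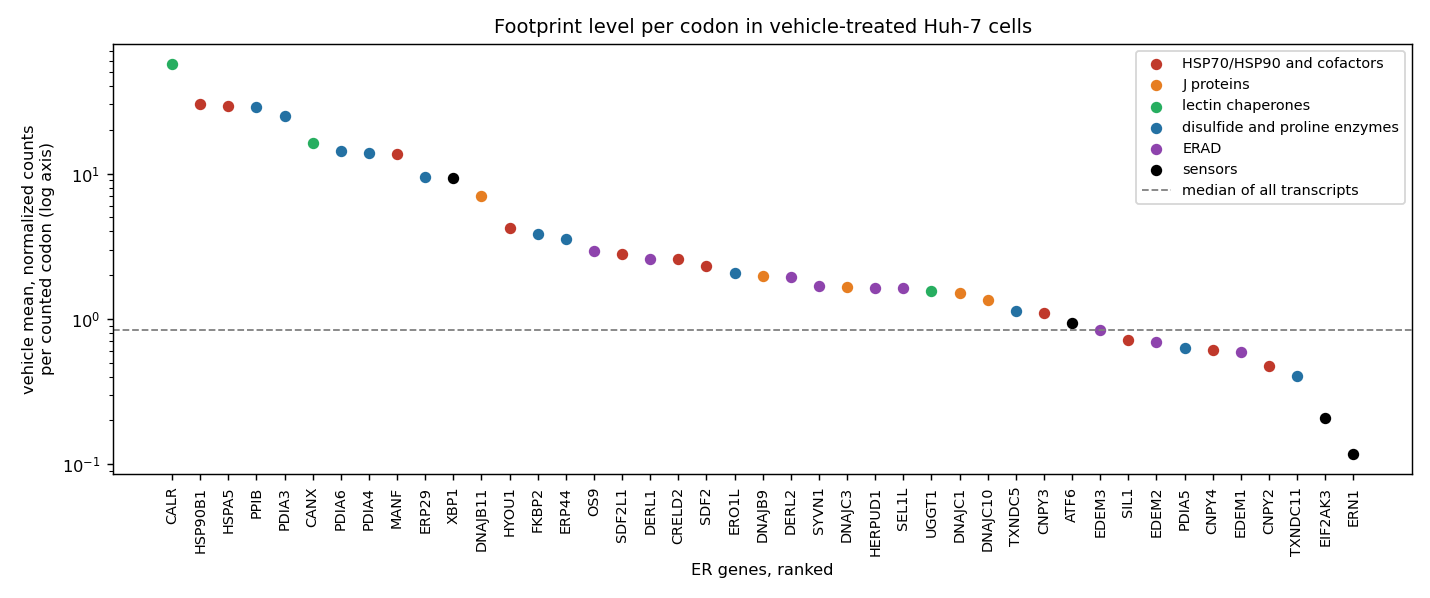
Vehicle mean in normalized counts per counted codon (log axis) for the 43 listed ER genes in order of level, coloured by role, with the median of all transcripts as a dashed line. CALR is highest at 57.3 and ERN1 lowest at 0.117, and 34 of 43 genes lie above the median of 0.834.

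With PF8503, 2 of 42 genes (4.76%) had a mean below the vehicle mean by the threshold or more, DNAJB9 and TXNDC5, where 1.08% of all 9157 transcripts did. No gene of the list was higher by as much, where 0.24% of all transcripts were. With PF846 none of 43 genes was past the threshold in either direction, where 0.396% of all 8839 transcripts were lower and 0.0792% higher. The median log2 ratio of the list was -0.0046 with PF8503, against 0.013 over all transcripts, with 21 genes below 0 and 21 above. It was -0.029 with PF846, against 0.00086, with 31 genes below 0 and 12 above, where 4392 of all 8839 transcripts were below 0. A ratio within 0.1 of 0 was seen for 26 of 42 genes with PF8503 (61.9%), close to the share of 60.9% over all transcripts, and for 35 of 43 with PF846 (81.4%), against 73.1% over all transcripts.

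**Figure D2:**
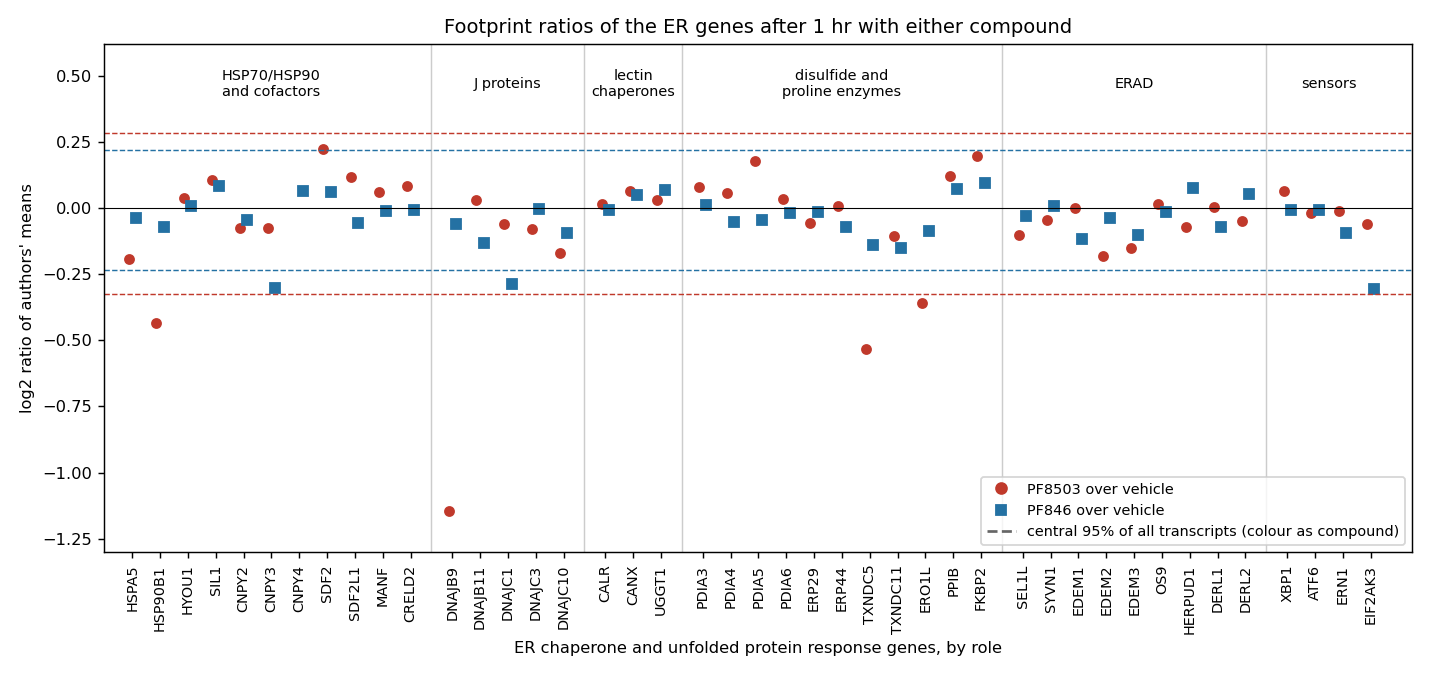
Log2 ratio of the authors' means, compound over vehicle, for each ER gene by role, with red circles for PF8503, blue squares for PF846 and dashed lines at the central 95% of all transcripts (-0.32 to 0.28 with PF8503, -0.23 to 0.22 with PF846). DNAJB9 at -1.14 and TXNDC5 at -0.53 are the lowest red circles, and no blue square lies below -0.30.

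DNAJB9 (ERdj4) is a J protein that brings HSPA5 to misfolded chains and to IRE1, and its gene lies at chr7:108569874-108574850. It had the lowest PF8503 ratio of the list. The vehicle mean was 265 and the PF8503 mean 120, which is 2.21-fold lower or -1.14 on the log2 scale. This was rank 16 from the lowest of 9157 transcripts and rank 2 among the 916 transcripts of its level bin, whose central 95% ran from -0.34 to 0.31. With PF846 the means were 403 with vehicle and 387 with compound, a ratio of -0.061. The PF8503 value was outside the scatter of transcripts of like level and the PF846 value inside it. These values cover different codons, and the way the PF8503 region was chosen, described below, favours a low ratio.

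TXNDC5 (ERp46) is a disulfide isomerase with several thioredoxin domains, and its gene lies at chr6:7881517-7910788. The PF8503 table gave a vehicle mean of 416 and a PF8503 mean of 288, 1.44-fold lower or -0.53, at rank 85 from the lowest in the table. Transcripts of like level spanned -0.29 to 0.24. With PF846 the means were 471 and 428, a ratio of -0.14, inside the range of -0.18 to 0.15 at its level there. TXNDC5 thus passed the threshold by a narrow margin, and the next gene of the list, HSP90B1 at -0.43, was just short of it. As for DNAJB9, the TXNDC5 values with PF8503 and with PF846 cover different codons.

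The vehicle means of both genes differed between the tables by more than the common scale. The same vehicle libraries enter both tables, and the vehicle mean of a transcript counted over the same codons was 1.09 times as high in the PF8503 table as in the PF846 table. A transcript whose vehicle log2 ratio strayed from this constant by over 0.002 was taken to have been counted over other codons, and this was found for 134 of 8775 transcripts in both tables (1.53%), of which 92 had the shorter region in the PF8503 table. Among the ER genes it held for DNAJB9 and TXNDC5, 2 of 42 (4.76%). The region used for DNAJB9 in the PF8503 table held 60.2% of the vehicle reads of its PF846 region, so 39.8% lay outside it. For TXNDC5 it held 80.9%, with 19.1% outside. The other 40 genes in both tables were counted over the same codons in each.

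On the scale of the PF846 table, DNAJB9 had a vehicle mean of 403 in the longer region and 243 in the shorter one, where PF8503 gave 110. TXNDC5 had 471 and 381, and PF8503 gave 264 in the shorter region. The authors shortened a region to the codons 3' of DMax, the codon where the cumulative reads with compound and with vehicle lay furthest apart, when that gap was large. A region chosen in this way uses the reads that are then compared, and it favours a low ratio by construction. How much of the DNAJB9 and TXNDC5 ratios comes from that choice was not tested, and the reads with PF8503 5' of the regions were not used here.

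**Figure D3:**
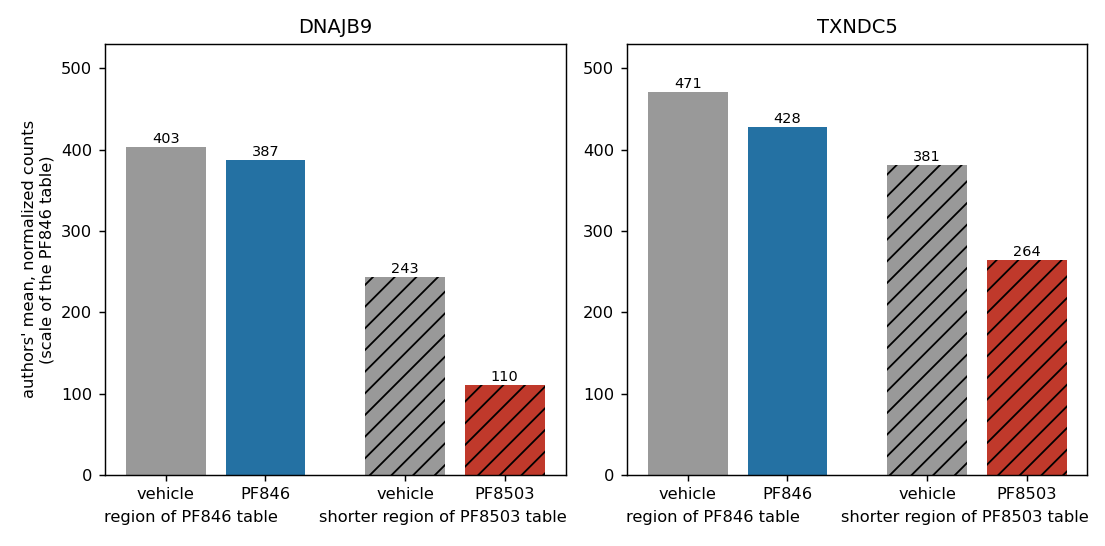
Authors' mean in normalized counts on the scale of the PF846 table for DNAJB9 and TXNDC5, with plain bars for the region of the PF846 table and hatched bars for the shorter region of the PF8503 table. PF846 and vehicle are near each other in the longer region (387 and 403, 428 and 471), and PF8503 is below vehicle in the shorter one (110 against 243, 264 against 381).

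Among HSPA5, HSP90B1 and their cofactors, 10 genes had a value with PF8503, and of these only the abundant HSP90B1 was below the range of its level. CNPY4 had no value with PF8503, so whether it was lower is not known from these values. HSP90B1 folds receptors and secreted proteins in the ER, and its gene lies at chr12:103930410-103947926. Its mean was 25890 with vehicle and 19177 with PF8503, 1.35-fold lower or -0.43, against a central range of -0.28 to 0.17, and it stood at rank 14 of 916 in its bin. That bin is wide in level, since it also held MANF with a vehicle mean of 2449. With PF846 the means of HSP90B1 were 23699 and 22549, a ratio of -0.072. HSPA5, the HSP70 of the ER, was 20335 and 17807 with PF8503, a ratio of -0.19 inside the same range, and 18614 and 18138 with PF846, a ratio of -0.037. Both chaperones were thus lower with PF8503 than with PF846, by -0.36 for HSP90B1 and -0.15 for HSPA5 in the direct ratio of the compounds. Both were counted over the same codons in the tables.

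The cofactors of these chaperones spread to either side of 0. HYOU1 and SIL1, which release nucleotide from HSPA5, had PF8503 ratios of 0.036 and 0.11 and PF846 ratios of 0.0078 and 0.084. SDF2, a partner of the J protein DNAJB11, had the highest PF8503 ratio of the list at 0.22, with means of 486 and 567, and a PF846 ratio of 0.061. Its relative SDF2L1, a gene induced in ER stress, had 0.12 with PF8503 and -0.055 with PF846. MANF and CRELD2, secreted proteins also induced in ER stress, had 0.059 and 0.083 with PF8503 and -0.013 and -0.0074 with PF846. CNPY3, a cofactor of HSP90B1 in the folding of Toll-like receptors, was the low one with PF846, at 287 with vehicle and 233 with compound, a ratio of -0.30 below the range of -0.22 to 0.20 at its level. Its PF8503 ratio was -0.075. CNPY2 had -0.074 with PF8503 and -0.047 with PF846, and CNPY4 had 0.065 with PF846. The median over this group was 0.048 with PF8503 over 10 genes, without CNPY4, and -0.013 with PF846 over 11.

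The J proteins, which bring clients to HSPA5 and stimulate its ATPase, were the group with the lowest medians, -0.080 with PF8503 and -0.094 with PF846 over 5 genes. DNAJB9 had the lowest PF8503 ratio of the group, and DNAJC1, a membrane J protein that sits near translating ribosomes, the lowest with PF846. DNAJC1 had a vehicle mean of 802 and a PF846 mean of 658, a ratio of -0.29 against a range of -0.15 to 0.15, at rank 5 of 884 in its bin. Its PF8503 ratio was -0.060. DNAJB11 (ERdj3) was 2391 and 2181 with PF846, a ratio of -0.133 at the very edge of its range, which began at -0.131, and 0.031 with PF8503. DNAJC10 (ERdj5), which also reduces disulfides, had -0.17 and -0.094, and DNAJC3 (p58IPK) had -0.080 and -0.0055. All 5 J proteins were below 0 with PF846, where 72.1% of the whole list and 49.7% of all transcripts were. With PF8503, 4 of 5 were, where 50% of the whole list and 45.3% of all transcripts were.

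The lectin chaperones hold glycoproteins in the folding cycle, and their ratios were close to 0. CALR had means of 24987 and 25250 with PF8503, a ratio of 0.015, and -0.0082 with PF846. CANX had 0.066 and 0.050, and UGGT1, which adds glucose back to unfolded glycoproteins, had 0.031 and 0.068.

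The enzymes that form disulfides or isomerize proline were mostly near 0, with TXNDC5 and ERO1L as the low members with PF8503. ERO1L, the oxidase that recharges protein disulfide isomerase, had a vehicle mean of 1017 and a PF8503 mean of 793, 1.28-fold lower or -0.36, against a range of -0.30 to 0.21, at rank 20 of 916 in its bin. With PF846 its means were 931 and 876, a ratio of -0.087. PDIA3, PDIA4 and PDIA6, abundant disulfide isomerases, had PF8503 ratios of 0.080, 0.058 and 0.035 and PF846 ratios of 0.011, -0.055 and -0.020. PDIA5 had 0.18 and -0.046. ERP44, which retains ERO1L in the early secretory pathway, had 0.0089 and -0.071, so the enzyme and its retention partner had unlike PF8503 ratios. ERP29 had -0.056 and -0.015, and TXNDC11 had -0.11 and -0.15, the lowest PF846 ratio of the group. The prolyl isomerases PPIB and FKBP2 were above 0 with both compounds, at 0.12 and 0.20 with PF8503 and 0.071 and 0.094 with PF846. FKBP2 had the highest ratio of the whole list with PF846.

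The genes of ER-associated degradation, which carry misfolded chains out of the ER, had ratios within 0.2 of 0 in each of the 9 genes measured. EDEM2, which trims mannose from misfolded glycoproteins, was lowest with PF8503 at -0.18, with means of 427 and 376, and its relatives EDEM3 and EDEM1 had -0.15 and 0.0020. With PF846 the 3 genes had -0.036, -0.10 and -0.12. The ubiquitin ligase SYVN1 and its partner SEL1L had -0.046 and -0.10 with PF8503 and 0.0089 and -0.029 with PF846. OS9, the lectin that delivers glycoproteins to this ligase, had 0.014 and -0.015. HERPUD1, a short-lived organizer of the complex that is induced in ER stress, had -0.072 with PF8503 and 0.077 with PF846, and the channel proteins DERL1 and DERL2 had 0.0036 and -0.048 with PF8503 and -0.073 and 0.051 with PF846. The medians were -0.048 with PF8503 and -0.029 with PF846.

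The sensors and XBP1 showed no ratio past the threshold. XBP1 had means of 3663 and 3833 with PF8503, a ratio of 0.066, and 3353 and 3339 with PF846, a ratio of -0.0060. The tables hold 1 row for XBP1, so its spliced and unspliced forms are not separated. ATF6 had -0.019 and -0.0084, and ERN1 had -0.011 and -0.094 at a vehicle mean of 122 in the PF8503 table. EIF2AK3 had the lowest PF846 ratio of the list, with means of 229 and 185, 1.23-fold lower or -0.30, below the range of -0.27 to 0.21 at its level and at rank 15 of 884 in its bin. Its PF8503 ratio was -0.061, from means of 250 and 239.

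Set against transcripts of like level, 4 of 42 genes (9.52%) were below the central 95% with PF8503, namely DNAJB9, TXNDC5, HSP90B1 and ERO1L. Over all transcripts 2.51% were, a share that the definition of the range fixes. DNAJB9 and TXNDC5 were counted over the shorter regions described above, a choice that favours a low ratio. With PF846, 4 of 43 (9.30%) were below the range at their level, where 2.6% of all transcripts were, namely EIF2AK3, CNPY3, DNAJC1 and DNAJB11. No gene of the list was above the range with either compound, where 2.51% of all transcripts were with PF8503 and 2.6% with PF846. The genes named with PF8503 had PF846 ratios from -0.14 to -0.061, and those named with PF846 had PF8503 ratios from -0.075 to 0.031. Since no library spread is known, a single library could carry any of these values.

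**Figure D4:**
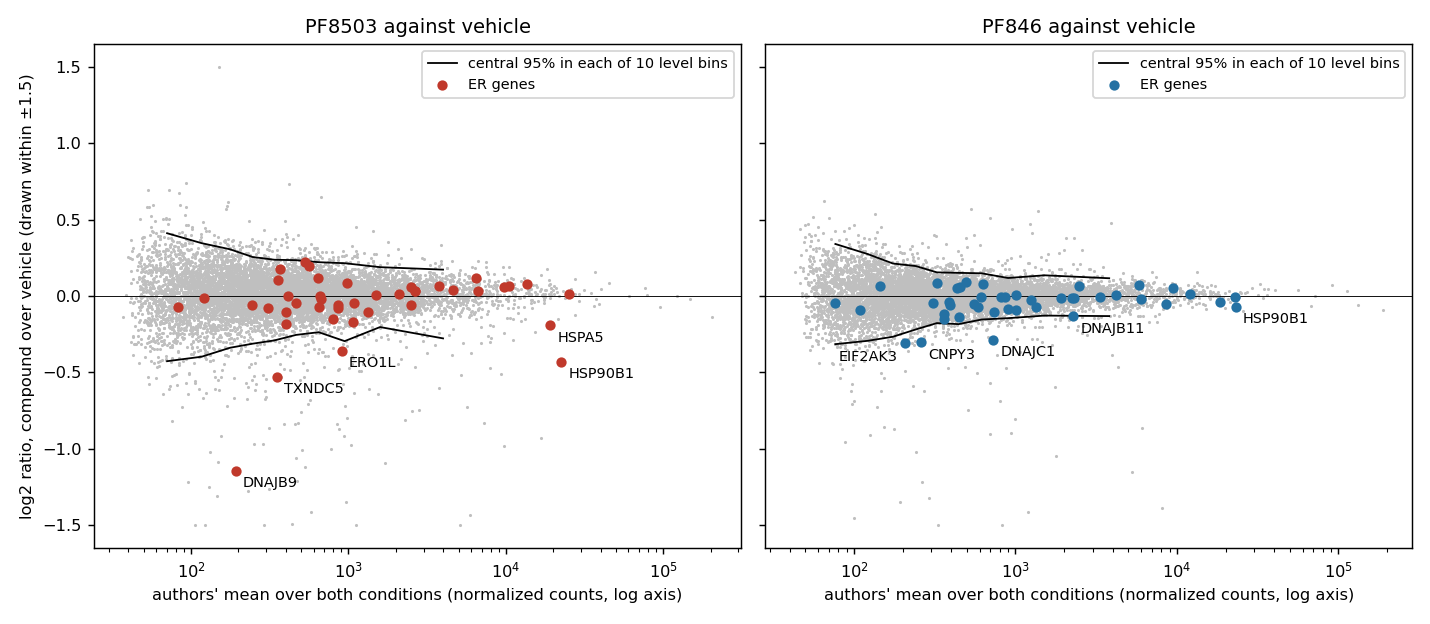
Log2 ratio of compound over vehicle against the authors' mean over both conditions (normalized counts, log axis) for all transcripts in grey and the ER genes in colour, with black lines at the central 95% in each of 10 level bins and grey points drawn within ±1.5. DNAJB9, TXNDC5, ERO1L and HSP90B1 lie below the lower line with PF8503, and EIF2AK3, CNPY3, DNAJC1 and, at its edge, DNAJB11 do with PF846.

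Set against each other at the matched dose and time, PF8503 and PF846 gave a median direct log2 ratio of 0.029 over the 42 genes in both tables, against 0.011 over all transcripts, with 17 genes lower with PF8503 and 25 higher. DNAJB9 was the 1 gene of 42 (2.38%) past the threshold, at -1.08, where 1% of all 8775 transcripts were lower with PF8503. No gene of the list was higher with PF8503 by as much, where 0.285% of all transcripts were. The DNAJB9 value sets different codons beside each other, and over the 40 genes with the same region in both tables none was past the threshold, with HSP90B1 lowest at -0.36 and EIF2AK3 highest at 0.24. Neither a difference nor a likeness of the compounds can be tested on pooled means.

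The genes that the response is known to induce had footprint ratios on either side of 0. No mRNA levels were used here, so the amount of an mRNA and the ribosomes on each copy cannot be told apart. Of 18 such genes on the list 17 were measured, with a median of 0.015 with PF8503 and -0.020 with PF846. Without DNAJB9 the median over 16 genes was 0.023 with PF8503 and the range ran from -0.43 for HSP90B1 to 0.12 for SDF2L1. With PF846, 14 of 17 (82.4%) were below 0, from -0.13 for DNAJB11 to 0.077 for HERPUD1. Over the whole list 72.1% were below 0 with PF846, and over all transcripts 49.7%.

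The ER stress response element was searched in promoters because ATF6 and XBP1 act through it. The letters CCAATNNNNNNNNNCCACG, with 9 open bases, were looked for on both strands of RefSeq windows from 250 bases before to 50 after the start site on GRCh38.p14. Of 40 genes with a window 7 (17.5%) held it, where 14 of 7729 genes of the tables with a window (0.181%) did, and 27 of all 35116 windows (0.0769%), of which a gene can have several. The 14 genes include the 7 of the list. The element is known from chaperone genes of this response and the list was chosen by the same function. A higher share was therefore built in and is no finding of these data. The 7 genes were HSPA5, HSP90B1, CRELD2, CALR, CANX, PDIA6 and XBP1. The elements of 6 of these genes are shown on the strand of the gene with 5 bases on either side and the element in capitals, and those of CANX, which has several start sites, are left out.
HSPA5 (chr9:125241386-125241414, minus strand, 66 bases before the start): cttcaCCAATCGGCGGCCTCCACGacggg
HSP90B1 (chr12:103930211-103930239, plus strand, 194 bases before): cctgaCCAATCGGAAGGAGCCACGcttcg
HSP90B1 (chr12:103930316-103930344, plus strand, 89 bases before, element reversed): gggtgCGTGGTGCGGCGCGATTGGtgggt
CRELD2 (chr22:49918549-49918577, plus strand, 80 bases before, reversed): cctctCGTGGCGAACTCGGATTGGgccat
CALR (chr19:12938379-12938407, plus strand, 225 bases before, reversed): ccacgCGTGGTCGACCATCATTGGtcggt
PDIA6 (chr2:10812848-10812876, minus strand, 86 bases before): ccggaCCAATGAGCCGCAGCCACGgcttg
XBP1 (chr22:28800598-28800626, minus strand, 52 bases before): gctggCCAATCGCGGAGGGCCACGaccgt
The 7 genes that hold the element had a median log2 ratio of 0.035 with PF8503, from -0.43 for HSP90B1 to 0.083 for CRELD2, and of -0.0082 with PF846, from -0.072 for HSP90B1 to 0.050 for CANX. HSP90B1, the gene with 2 elements, was the lowest of the 7 with both compounds. A match describes these letters in a window and is not a measured binding site, and a footprint ratio is not a measure of transcription.

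Signal sequences are hydrophobic, and so were the N-termini of most of these proteins. The mean Kyte-Doolittle hydropathy of residues 2 to 30 had a median of 0.731 over the 43 genes and -0.369 over all matched transcripts, and 39 of 43 were above the latter. SDF2 was highest with 1.78 and HERPUD1, which has no cleaved signal, lowest with -1.29. DNAJB9 was at rank 8 of the list with 1.24, TXNDC5 at rank 20 with 0.876 and HSP90B1 at rank 23 with 0.710. Among all matched transcripts these genes stood at percentiles 97.4, 93.0 and 90.3. Whether hydropathy bears on the ratios was not tested. A C-terminus of the KDEL kind, which returns luminal proteins to the ER, was found in 16 of 43 genes and in 44 of all matched transcripts (0.482%), counted as any residue followed by D or E, then E, then L. The 16 genes had medians of -0.024 with PF8503 and -0.051 with PF846, beside -0.0046 over the other 26 and -0.0084 over the other 27.

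Further genes of the pathway, taken as 4 lists of 78 genes in all, had medians of 0.036 with PF8503 over 70 genes and -0.020 with PF846 over 71. In the PERK and ATF4 arm none of 11 genes was past the threshold, with ATF4 itself at 0.0087 and -0.020. The lowest and highest with PF8503 were PPP1R15B (-0.17) and SESN2 (0.15), and the lowest with PF846 was ATF3 (-0.31), a stress-induced transcription factor. None of 10 further genes of ER stress sensing, and none of the 22 further genes of ER-associated degradation with PF8503 or 23 with PF846, was past it. TXNDC16 was lowest among the degradation genes with PF8503 (-0.40) and SVIP with PF846 (-0.27). Of 27 further ER folding genes 1 was lower past the threshold with each compound. Over all transcripts 1.08% were lower past it with PF8503 and 0.396% with PF846, and 0.24% and 0.0792% were higher. At these shares, lists of this size would hold few or no such genes. TMX2, a membrane thioredoxin, was -0.87 with PF8503 and 0.035 with PF846. TOR1B, an ATPase of the ER lumen, was 0.0076 with PF8503 and -0.54 with PF846. Each was counted over a shorter region in the table where it was low, as DNAJB9 and TXNDC5 were.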

How the data were processed

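Ribosome footprints were counted in 9 libraries of Huh-7 cells. The authors clipped adapters (FASTX toolkit), discarded reads from ribosomal RNA, mapped the remainder by Bowtie to canonical coding transcripts of GRCh38, and kept reads with a single position. They summed reads per coding sequence, 3' of DMax where its score was high and otherwise without the codons near either end, and dropped transcripts with few reads. The tools' versions are not given in the sources used here. Each deposited signal value is a mean, taken by the authors, of counts scaled by DESeq size factors, for vehicle, for the compound and for both. The deposited tables also hold the authors' own comparison, namely a fold ratio, its log2 and p-values from DESeq, and these columns were not used. The replicate numbers in the study's scripts differ from those of the labels, so which libraries entered a mean is not certain.

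From the means, log2 ratios, ranks and medians were computed with no pseudocount and no further filter. Transcripts were grouped into 10 bins of equal size by mean level. No model was fitted and no p-value computed, since the tables hold no value of a single library. The threshold rule and the rule for a different counted region were tested on simulated data, and the other steps were not. All 44 genes could be named, in order of role, and genes of the further lists only past the threshold or as the extremes of a list, while ATF4 was named outside this rule after its values were seen. The genes and lists were chosen with earlier results of these data known. Coding lengths, translations and gene positions came from GENCODE version 44, which matched 9122 of 9221 transcripts (98.9%). This release is newer than the one the authors used, and a region shortened in both tables would lower a level per codon. The alternatives were a log2 threshold of 0.3 or 1, centring on the median of all transcripts, 10 counts added to both means, a minimum mean of 100, the same counted region only, and leaving out DNAJB9. Python 3.11.15, numpy 2.4.6, pandas 2.3.3 and matplotlib 3.10.9 were used.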

Additional observations from a re-analysis of the deposited data

How the results depend on the processing

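With a threshold of 0.3, 4 genes were lower with PF8503, 2 with PF846 and 3 with PF8503 relative to PF846, in place of 2, 0 and 1. These are 9.52%, 4.65% and 7.14% of the genes measured, where 2.98%, 1.12% and 2.53% of all transcripts were past 0.3. With a threshold of 1, 1 gene was lower with PF8503, DNAJB9 (2.38%), where 0.251% of all transcripts were. Over the same counted region only, 0 genes were lower with PF8503 relative to PF846, since DNAJB9 is left out there. Leaving out DNAJB9, an alternative chosen after seeing the data, gave 1 gene lower with PF8503 and 0 relative to PF846. The counts under the other alternatives were those given in the report. Centring and the added counts each moved all 127 log2 ratios of the genes by under 0.1, and the minimum of 100 left the 124 ratios it kept as they were. No paired analysis was possible because the deposited tables hold means over the libraries of a condition, and leaving out a replicate could not be run for the same reason. How far any ratio exceeds the spread between libraries cannot be said from these values.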
